A study of Mus musculus with 16 samples.

Results

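The 10 genes described here encode enzymes of glycolysis, from hexokinase to lactate dehydrogenase: Hk2, Gpi1, Pfkl, Aldoa, Tpi1, Gapdh, Pgk1, Pgam1, Pkm and Ldha. They were picked by symbol, and all 10 were found among the 9443 genes of the count table. RNA came from wild-type (WT) mouse germinal centre B cells of lymph nodes, in 16 bulk libraries. Every group was taken 4 h after an antibody given in vivo, and the groups, of 4 libraries each, were light zone (LZ) cells with the isotype control, LZ cells with anti-CD40, dark zone (DZ) cells with the isotype control and DZ cells with anti-CD40. Germinal centres are sites where B cells mutate their antibody genes and compete for help; DZ cells divide and mutate, LZ cells meet helper T cells, and CD40 is the receptor that receives much of that help. The labels do not say that replicates came from separate mice, so p-values measure the spread between these libraries, which may be technical.

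Glycolysis splits glucose into pyruvate in the cytosol, yielding ATP and carbon skeletons for biosynthesis. An upper phase traps and rearranges the sugar (hexokinase, glucose phosphate isomerase, phosphofructokinase), aldolase and triose phosphate isomerase cut it into interconvertible trioses, and a lower phase recovers ATP, after which lactate dehydrogenase turns pyruvate into lactate and restores NAD+. Many of these genes are known targets of Myc, which binds the E-box CACGTG, and of the hypoxia factor HIF-1, whose response elements share the core ACGTG; activated lymphocytes are known for high glycolytic rates.

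Promoters are shown because Ldha was the member that differed between groups and because its upstream start carried the E-box. Each line holds the 150 bases before a RefSeq start site (GRCm38.p6), 5′ to 3′ along the gene's strand, with matches to ACGTG or CACGTG, on either strand, in capitals. The Ldha starts come first, Hk2 and Aldoa are included as members with an ACGTG match, and Gpi1 as a member without. In the 250 bases before their starts, Pfkl, Tpi1 and Gapdh also had no match, while Pkm, Pgk1 and Pgam1 had matches. A relation between matches and levels was not tested. The windows are chr7:46845654-46845803 on the plus strand for the upstream Ldha start, chr7:46846932-46847081 on the plus strand for its downstream start, chr6:82774455-82774604 on the minus strand for Hk2, chr7:126799255-126799404 on the minus strand for the middle one of 3 Aldoa starts, and chr7:34230337-34230486 on the minus strand for Gpi1.
Ldha upstream start: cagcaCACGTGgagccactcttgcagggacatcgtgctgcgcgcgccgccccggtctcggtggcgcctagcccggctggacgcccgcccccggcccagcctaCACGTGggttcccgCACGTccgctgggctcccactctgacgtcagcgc
Ldha downstream start: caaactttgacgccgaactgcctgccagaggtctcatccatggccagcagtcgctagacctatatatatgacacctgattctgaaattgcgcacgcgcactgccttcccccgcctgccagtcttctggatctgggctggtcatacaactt
Hk2: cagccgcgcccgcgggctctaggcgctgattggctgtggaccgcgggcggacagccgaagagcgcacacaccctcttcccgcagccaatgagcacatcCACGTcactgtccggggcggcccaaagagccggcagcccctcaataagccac
Aldoa middle start: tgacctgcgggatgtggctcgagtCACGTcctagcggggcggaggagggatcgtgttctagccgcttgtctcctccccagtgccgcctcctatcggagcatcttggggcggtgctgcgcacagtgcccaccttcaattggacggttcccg
Gpi1: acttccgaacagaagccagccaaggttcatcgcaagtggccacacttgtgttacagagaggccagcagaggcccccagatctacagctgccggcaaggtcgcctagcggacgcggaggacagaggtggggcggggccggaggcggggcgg

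Over the 250 bases before each of the members' 14 RefSeq starts, CACGTG was found before 1, the upstream Ldha start, where it occurred 2 times, with its first base at -145 and at -48. Of 32851 promoters from RefSeq 6.02% held it, and of the 9694 promoters of genes with counts 8.84% did. At least 2 matches were found in 0.429% and 0.825% of these. ACGTG was found before 7 of the 14 starts (50%), belonging to 6 of the 10 genes, against 16.6% of all promoters and 22.7% of those of listed genes. The windows of the middle and last Aldoa starts overlap, and their matches at -126 and -202 are the same site, counted for both starts. Each CACGTG contains ACGTG on both strands, so 4 of the 5 ACGTG matches of the upstream Ldha start were its 2 E-boxes. The GC box GGGCGG was found before 8 of 14 starts (57.1%), close to the 58.8% of listed genes, and TATAAA before 0 of 14, against 6.04%. Bases just after the start matched a GENCODE vM21 transcript for 12 of the 14 starts, but not for the upstream Ldha start or for Pgam1. A match describes letters in the window and is not a bound site, and which start the libraries used was not measured.

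The counts are unique molecular identifiers (UMI) from 3′ ends, so that each RNA molecule is tagged once and levels need no division by gene length. Levels are given in CPM, the UMI of a gene per 1000000 UMI of its library after TMM scaling. Libraries held 493131 to 1473415 UMI, and 1 UMI was worth 0.651 to 2.05 CPM. The marker check matched the labels: all 5 B cell markers were present (4185 to 7106 CPM summed; for marker sums only, CPM are of the library total without TMM), and the 5 LZ markers summed to 1626 to 2310 CPM in isotype LZ against 637 to 803 in isotype DZ libraries. With anti-CD40 the LZ sum was 5232 to 6668 CPM in LZ and 2420 to 3785 in DZ libraries, so it moved with the antibody as well as the zone. Listed markers of other cells numbered 0 of 7 for T cells, 0 of 7 for red cells and platelets and 2 of 8 for myeloid cells (1.90 to 20.3 CPM summed). Of 7 stromal and follicular dendritic cell markers only Vim, which B cells also express, was listed (29.1 to 317 CPM). Every gene in the table reached at least 6 UMI in some library, so absence from it does not show absent expression. Mean Myc rose from 32.5 to 269 CPM in the LZ and from 21.9 to 104 in the DZ after anti-CD40. In bulk RNA, fewer cells of a type and less RNA per cell cannot be told apart.

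Ranked by mean CPM over the 16 libraries, the members fell into well-measured genes and near-floor genes. Pkm (748 CPM) and Ldha (715) were the highest, followed by Aldoa (481), Tpi1 (350.3), Gpi1 (335), Gapdh (274) and Pfkl (59.4), and the low ones were Hk2 (8.50), Pgam1 (5.85) and Pgk1 (5.84). Neighbours in this order overlapped in their ranges over the 16 libraries, apart from Pfkl (30.5 to 116 CPM) and Hk2 (1.01 to 23.7 CPM). The Gapdh mean describes none of its libraries, as shown further on. A minimum on low counts kept 7 members among 6824 genes tested, and Hk2, Pgk1 and Pgam1 did not pass it; their tests come from a fit to all 9443 genes and are given apart.

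**Figure D1:**
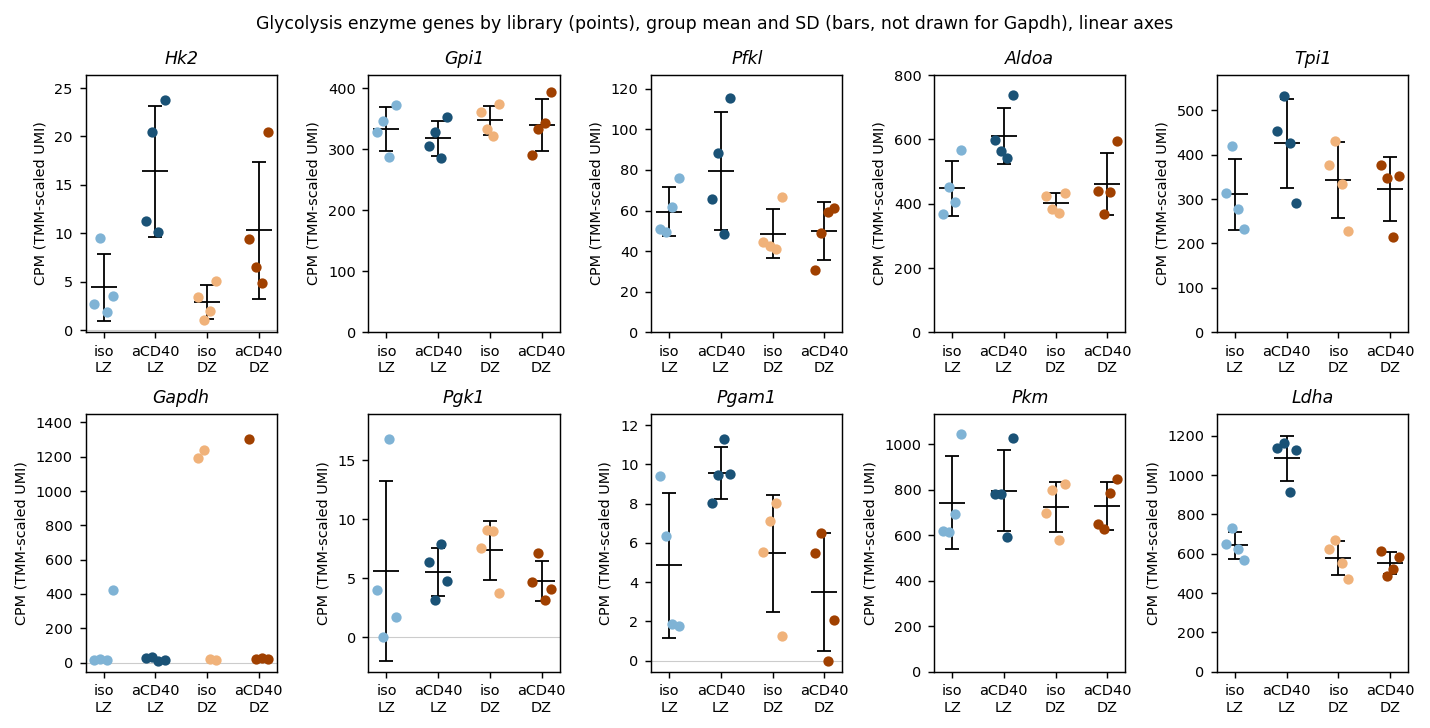
Levels of the 10 glycolysis enzyme genes in each of the 16 libraries, in CPM on linear axes, 1 panel per gene in pathway order; points are libraries and bars the mean ± SD of 4, not drawn for Gapdh. The 4 anti-CD40 LZ libraries of Ldha lie between 916 and 1165 CPM, above the other 12, while Gpi1 and Pkm are near level and Gapdh splits into 4 high and 12 low libraries.

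Among the glycolysis enzymes Ldha rose in LZ cells after anti-CD40, and no other of the 7 members above the minimum count passed. Of the 7 tested members 1 passed the test (edgeR quasi-likelihood, Benjamini-Hochberg adjusted p under 0.05), whereas 19.1% of all 6824 genes did, 740 higher and 562 lower. The median log2 fold change of the 7 was 0.42, with 5 positive, and that of all tested genes was 0.01. Ldha encodes the A subunit of lactate dehydrogenase, the enzyme that converts pyruvate into lactate.

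Ldha stood at 650.3, 732, 623 and 566 CPM in isotype LZ libraries 1 to 4, and at 1135, 1165, 916 and 1129 CPM in anti-CD40 LZ libraries 1 to 4. All 4 anti-CD40 libraries were above all 4 isotype libraries, the lowest of them being library 3. The mean went from 643 ± 69.0 to 1086 ± 114 CPM (SD, n = 4), a log2 fold change of 0.76 (SE 0.15, edgeR adjusted p = 0.00122). Over 17 alternative analyses it ranged from 0.65 to 0.83, with adjusted p from 6.98e-06 to 0.0102. Without the libraries numbered 4 it was 0.66 (adjusted p = 0.00530), and with the Gapdh row removed 0.72 (adjusted p = 0.00173).

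Ldha in DZ cells was at 623, 670, 551 and 474 CPM with the isotype and at 616, 488, 523 and 582 CPM with anti-CD40. These groups overlapped throughout. Their means were 579 ± 85.6 and 552 ± 57.7 CPM, and the log2 fold change was -0.07 (95% interval -0.39 to 0.24, SE 0.14, adjusted p = 0.962, edgeR). None of the 7 tested members passed in the DZ, where 2.39% of all genes did (163, with 746 at an unadjusted p under 0.05); with DESeq2 the count of members was also 0. The members' median there was -0.04, beside -0.01 for all genes.

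The zone difference of the Ldha response, its log2 change in the LZ minus that in the DZ, was 0.83 (SE 0.20, unadjusted p = 6.82e-04). It ranked 20 among 6824 genes by p, but it did not pass adjustment in the main edgeR fit (adjusted p = 0.225), where 0.0147% of all genes, 1 gene, passed. With DESeq2, which called 34 genes, it passed at an adjusted p of 0.0129. The size kept between 0.72 and 0.90 over 24 alternatives, with adjusted p from 0.0129 to 0.526. It passed in 2 of the 24, DESeq2 and edgeR with a block for replicate number, which is not a stated pairing. None of the other 6 tested members passed for this difference with edgeR or DESeq2, and 586 genes had an unadjusted p under 0.05. Tpi1 had the next smallest p (0.53, SE 0.33, unadjusted p = 0.120).

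Under the isotype control no glycolysis member separated the zones. None of the 7 passed between isotype LZ and isotype DZ cells (edgeR), against 2.23% of all genes (152, with 822 at an unadjusted p under 0.05), and DESeq2 called none of them either. For Ldha the difference was 0.15 (95% interval -0.17 to 0.46, SE 0.14, adjusted p = 0.782), for Aldoa 0.15 (-0.22 to 0.52, adjusted p = 0.813) and for Pkm 0.03 (-0.39 to 0.46, adjusted p = 0.977). These intervals bound the differences without showing that the zones are equal.

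After anti-CD40 the zones differed in Ldha. Its mean was 1086 CPM in LZ and 552 CPM in DZ cells, with no overlap, a log2 difference of 0.98 (SE 0.15, adjusted p = 2.53e-04, edgeR). It was between 0.87 and 1.05 over 17 alternatives and passed in each. It was 1 of 7 members to pass, where 11.5% of all genes did, and the median of the 7 was 0.39 beside 0.03 for all genes. The comparisons share libraries, since the anti-CD40 LZ group enters both this one and the antibody comparison in the LZ.

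Depth and markers of cell types are given beside the Ldha rise. Ldha rested on 321 to 484 UMI in isotype LZ and on 708 to 813 UMI in anti-CD40 LZ libraries. The summed B cell markers were 4809 to 6234 CPM in isotype LZ and 4185 to 5041 in anti-CD40 LZ libraries. The LZ markers were at 1626 to 2310 and at 5232 to 6668 CPM, without overlap. Vim was at 63.6 to 201 and at 29.1 to 88.5 CPM. Summed plasma cell markers (3 of 4 listed) were 313 to 933 and 297 to 484 CPM, and the 2 listed myeloid markers 1.90 to 18.1 and 7.28 to 16.3. The part of these markers in the Ldha difference was not tested.

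**Figure D2:**
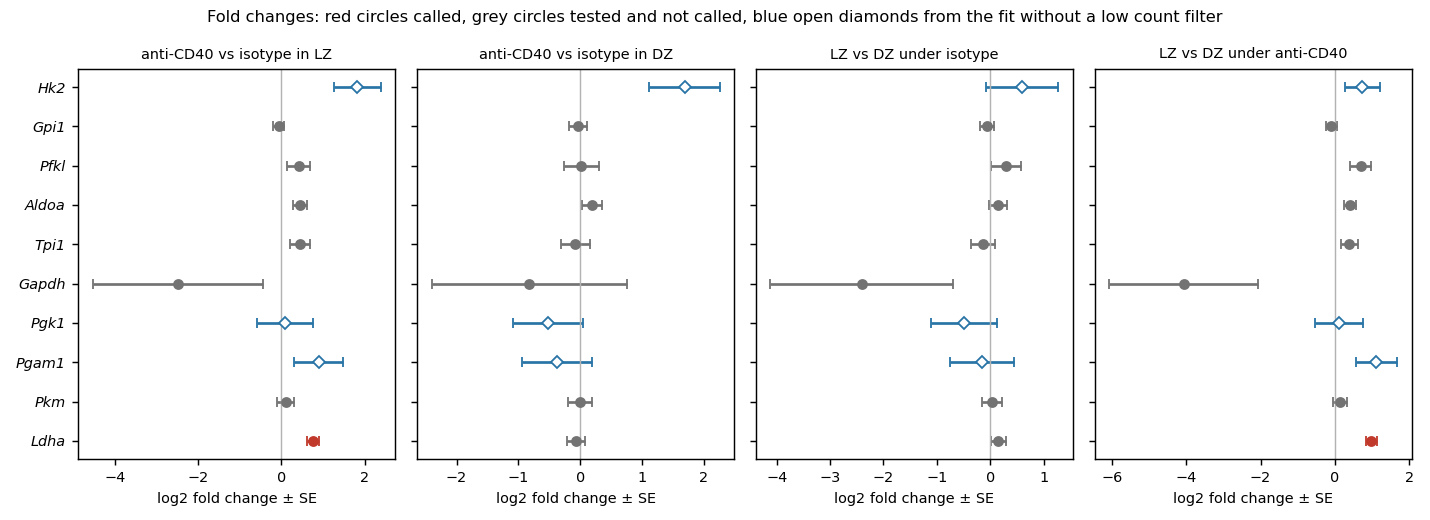
Log2 fold changes ± SE of the 10 genes (rows, in pathway order) in the 4 comparisons (panels). Red points passed, grey points were tested and did not pass, and open blue diamonds are Hk2, Pgk1 and Pgam1 from the fit without a minimum count; Ldha is red at 0.76 in the LZ antibody comparison and at 0.98 between the zones under anti-CD40.

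The upper phase began with Hk2, an inducible hexokinase that phosphorylates glucose and so keeps it in the cell. Its UMI numbered 2, 6, 1 and 2 in isotype LZ libraries 1 to 4 and 7, 13, 9 and 15 in anti-CD40 LZ libraries 1 to 4. In the DZ they numbered 5, 1, 2 and 4 with the isotype and 12, 10, 3 and 10 with anti-CD40. On the CPM scale the LZ groups did not overlap (1.86 to 9.55 against 10.1 to 23.7), while the DZ groups did (1.01 to 5.03 against 4.83 to 20.5).

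Hk2 had a log2 fold change of 1.82 in the LZ (SE 0.56, adjusted p = 0.0327, edgeR over 9443 genes) and 1.68 in the DZ (SE 0.57, adjusted p = 0.209). The LZ value passed also with DESeq2 (adjusted p = 0.0373). It no longer passed without isotype LZ library 1 (adjusted p = 0.0983), 3 (0.0878) or 4 (0.0570), without anti-CD40 LZ library 2 (0.0930) or 4 (0.105), or without all libraries numbered 4 (0.0993). The difference of the changes between zones was 0.14 (95% interval -1.96 to 2.24, adjusted p = 0.996), so that at this depth a zone difference could not be seen for Hk2 in either direction.

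Gpi1, which interconverts glucose and fructose phosphates, was the most even member. It lay between 285 and 393 CPM in all 16 libraries, a 1.38-fold span. Group means were 334 ± 35.9 in isotype LZ, 318 ± 29.1 in anti-CD40 LZ, 348 ± 24.0 in isotype DZ and 339.8 ± 42.1 CPM in anti-CD40 DZ (SD, n = 4). Its change with anti-CD40 was -0.07 in the LZ (95% interval -0.37 to 0.24, adjusted p = 0.793, edgeR) and -0.04 in the DZ (-0.34 to 0.26, adjusted p = 0.982).

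Pfkl encodes the liver-type subunit of phosphofructokinase, which commits the sugar to glycolysis. Its values were 51.1, 49.3, 61.5 and 75.8 CPM in isotype LZ, 65.7, 88.3, 48.5 and 116 in anti-CD40 LZ, 44.3, 42.6, 41.1 and 66.6 in isotype DZ, and 30.5, 48.8, 59.5 and 61.4 CPM in anti-CD40 DZ libraries. All groups overlapped, with library 4 the highest in each. The log2 fold change was 0.42 in the LZ (SE 0.28, adjusted p = 0.351) and 0.02 in the DZ (SE 0.28, adjusted p = 0.996), and LZ exceeded DZ under anti-CD40 by 0.69 (SE 0.28, adjusted p = 0.124, edgeR), which did not pass. That zone difference passed in 1 of 17 alternatives, a block for replicate number.

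Aldoa, the aldolase that splits the 6-carbon sugar into trioses, had the smallest p after Ldha among the 7 members above the minimum count in the LZ comparison. It stood at 369, 452, 405 and 566 CPM in isotype LZ libraries and at 599.7, 565, 542 and 738 in anti-CD40 LZ libraries. The groups overlapped through isotype library 4 only, which was above 2 of the anti-CD40 libraries. The log2 fold change was 0.45 (95% interval 0.08 to 0.82, SE 0.17, adjusted p = 0.0712, edgeR) and did not pass. It passed in 3 of 17 alternatives: without isotype LZ library 4 (0.58, adjusted p = 0.0240), without all libraries numbered 4 (0.46, adjusted p = 0.0447) and with a block for replicate number. The block is not a stated pairing. In the DZ Aldoa averaged 403 ± 29.9 and 461 ± 96.4 CPM (0.19, SE 0.17, adjusted p = 0.848), and the difference between LZ and DZ under anti-CD40 was 0.41 (SE 0.17, adjusted p = 0.126). That difference passed in 1 of 17 alternatives, the same block.

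Tpi1, which interconverts the trioses, stood at 313, 420.1, 278 and 233 CPM in isotype LZ and at 452, 531, 426 and 291 CPM in anti-CD40 LZ libraries. The groups overlapped, and library 4 was the lowest in both. The change was 0.45 (SE 0.23, adjusted p = 0.199) in the LZ and -0.08 (SE 0.23, adjusted p = 0.977, edgeR) in the DZ, where means were 342 ± 85.1 and 323 ± 72.7 CPM. The LZ change passed in 1 of 17 alternatives, the block for replicate number.

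The lower phase opened with an uneven gene. Gapdh encodes the dehydrogenase that couples triose oxidation to NADH and is widely used as a reference gene. It had 239 UMI (422 CPM) in isotype LZ library 4, 1720 (1190.4 CPM) and 1222 (1238 CPM) in isotype DZ libraries 1 and 2, and 1664 (1301 CPM) in anti-CD40 DZ library 1. In the other 12 libraries it had 8 to 28 UMI (11.3 to 31.5 CPM). No library lay between, and the lowest of the high set was 13.4-fold above the highest of the low set.

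The high set crossed zone and antibody: it took 1 of 4 isotype LZ, 0 of 4 anti-CD40 LZ, 2 of 4 isotype DZ and 1 of 4 anti-CD40 DZ libraries. The gap of 3.64 on the log2 scale between neighbouring libraries was the widest among the 6824 tested genes, the next being Camk1d with 2.62. Of the 6824 tested genes, another 8 were higher and 5 lower in exactly these 4 libraries than in all the other 12. How many genes split in this way for other choices of 4 libraries was not counted. Pkm and Ldha showed no such split, lying between 474 and 1165 CPM in all 16 libraries.

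Fold changes of Gapdh between 2 groups had errors of 1.58 to 2.04 on the log2 scale, and its zone difference had an error of 2.58. The change was -2.49 in the LZ (SE 2.04, adjusted p = 0.464) and -0.82 in the DZ (SE 1.58, adjusted p = 0.957, edgeR). Without isotype LZ library 4 the LZ value turned to 0.29 (adjusted p = 0.963), and without anti-CD40 DZ library 1 the DZ value moved to -4.87 (adjusted p = 0.271). The last 300 bases of its transcript matched 4 other GENCODE genes, 2 of them pseudogenes, at 95% identity or more over at least 200 bases. The other 9 members had 0 such matches. How reads that map to several such copies were counted was not examined. The part of these copies in the split was not tested.

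**Figure D3:**
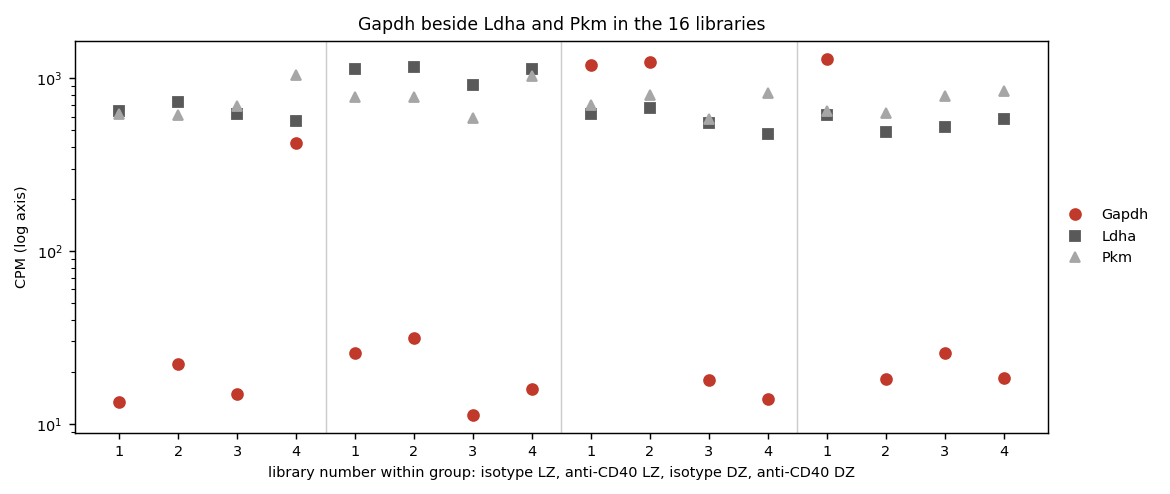
Gapdh (red circles), Ldha (dark squares) and Pkm (grey triangles) in each of the 16 libraries, in CPM on a log axis; vertical lines part the groups. Gapdh is between 422 and 1301 CPM in 4 libraries and between 11.3 and 31.5 CPM in the other 12, whereas Ldha and Pkm stay within 474 to 1165 CPM.

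Pgk1 and Pgam1, which encode phosphoglycerate kinase and phosphoglycerate mutase, were near the floor of the counts. Pgk1 had 0 to 11 UMI and Pgam1 0 to 10 UMI per library, so that a moderate change was not detectable at this depth; a count of 0 allows up to 3 UMI, counting error only. Pgk1 means were 5.64 and 5.55 CPM in isotype and anti-CD40 LZ, and 7.38 and 4.79 CPM in isotype and anti-CD40 DZ groups. Pgam1 was at 8.02 to 11.3 CPM in anti-CD40 LZ and at 0 to 6.51 CPM in anti-CD40 DZ libraries, without overlap, yet the log2 difference of 1.12 did not pass (SE 0.56, adjusted p = 0.262, edgeR over 9443 genes).

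Pkm encodes the pyruvate kinase of most tissues, which makes pyruvate in the last ATP-yielding step. It stood at 619, 614, 692 and 1044 CPM in isotype LZ and at 782, 781, 592 and 1029 CPM in anti-CD40 LZ libraries, overlapping over nearly the whole range. The change was 0.10 (95% interval -0.33 to 0.53, SE 0.20, adjusted p = 0.785, edgeR). In the DZ the means were 726 ± 110 and 727 ± 106 CPM. Counts per gene do not tell the M1 from the M2 splice form.

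Set against its substrate-making neighbour, Ldha exceeded Pkm in all 4 anti-CD40 LZ libraries, with a CPM ratio of 1.10 to 1.55. The ratio was 0.54 to 1.19 in isotype LZ, 0.57 to 0.95 in isotype DZ and 0.67 to 0.95 in anti-CD40 DZ libraries. The anti-CD40 LZ range overlapped the isotype LZ range and lay above both DZ ranges. Summed over the 9 members other than Gapdh, the level was 2552 ± 245 CPM in isotype LZ, 3348 ± 365 in anti-CD40 LZ, 2462 ± 194 in isotype DZ and 2471 ± 269 CPM in anti-CD40 DZ libraries (SD, n = 4).

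Of the difference of 796 CPM between the LZ sums, Ldha made up 55.7%, Aldoa 20.5% and Tpi1 14.4%. The share of Ldha in the sum was 30.6 to 33.7% in anti-CD40 LZ libraries and 19.8 to 27.8% in isotype LZ libraries, without overlap. Without Ldha the sums overlapped, at 1697 to 2298 CPM against 1923 to 2565 CPM. These sums and shares carry no test, since they follow from the values above.

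Libraries numbered 4 differed from the rest of their groups in several of these genes. In all 4 groups library 4 was above the other 3 libraries for Gpi1 (1.11 to 1.22 times their mean), Pfkl (1.33 to 1.71), Aldoa (1.10 to 1.43) and Pkm (1.19 to 1.63). Tpi1 was below the other 3 in 3 of 4 groups (ratio 0.60 to 1.12 over the 4), and Ldha was below them in both isotype groups and within them in both anti-CD40 groups (0.77 to 1.07). The same libraries were thus shifted upward in 4 members and mostly downward in Tpi1. Over all tested genes, deviations of the libraries numbered 4 from their group means correlated between groups at r of 0.49 to 0.66. Joint deviation of these libraries was therefore not limited to the glycolysis genes. The share of all genes with library 4 outside the other 3 was not counted, and the cause was not tested.

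**Figure D4:**
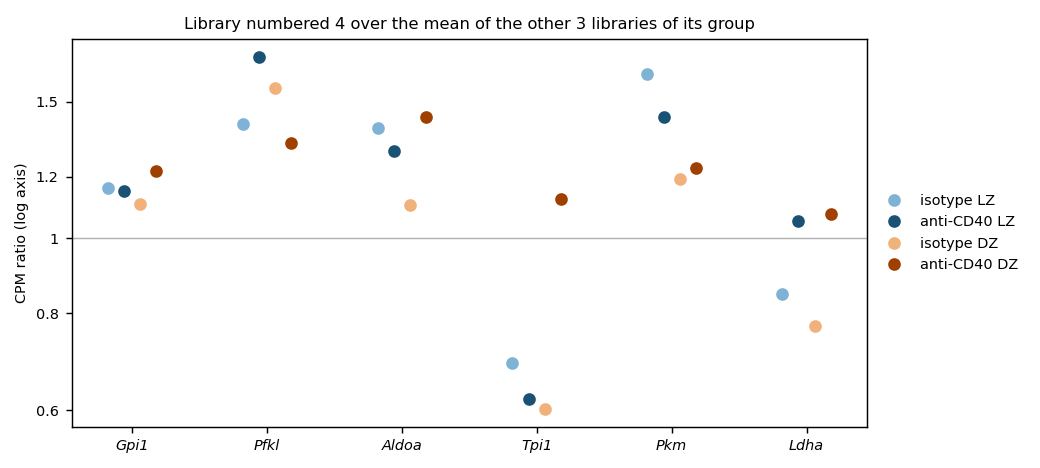
CPM of the library numbered 4 divided by the mean of the other 3 libraries of its group, on a log axis, for 6 members; each point is 1 group and the line at 1 marks no difference. All points of Gpi1, Pfkl, Aldoa and Pkm are above 1, and 3 of 4 points of Tpi1 are below it.

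Likeness of profile was measured as the root mean square difference between standardised log2 CPM over the 16 libraries, where 0 is identity. The nearest pair of members was Pfkl and Pkm at 0.70, and the member nearest to Ldha was Aldoa at 0.78, which ranked 516 among 6823 other genes. The 5 genes nearest to Ldha were Fdps (0.38), a cholesterol pathway synthase, Endog (0.39), a mitochondrial nuclease, Dctpp1 (0.40), a nucleotide pyrophosphatase, Nudc (0.41) and Phb (0.41), the prohibitin gene. All 5 rose in the LZ, where the log2 fold changes of Fdps, Endog, Dctpp1, Nudc and Phb were 0.94, 1.36, 1.30, 0.90 and 1.11 (edgeR adjusted p from 5.13e-05 to 0.00479). None of the 5 passed in the DZ, with adjusted p from 0.227 to 0.947. The 5 were chosen by likeness to Ldha over these same 16 libraries. The choice largely fixes this pattern, so these p-values are not independent evidence.

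Around the pathway, few other isoenzymes were in the table, and absence from it does not show absent expression. Of 19 listed isoenzyme genes 6 were in the table and 4 were tested, and in the LZ 1 rose with anti-CD40 and 0 fell, where 19.1% of all genes passed. It was Bpgm, the bisphosphoglycerate mutase that makes a side product of the lower phase, which went from 51.7 ± 11.8 to 95.6 ± 24.8 CPM (SD, n = 4), a difference of 0.88 in log2 (SE 0.23, edgeR adjusted p = 0.0117). It no longer passed without isotype LZ library 1 (adjusted p = 0.0529), without anti-CD40 LZ library 1 (0.0615) or with only the LZ groups in the fit (0.0504). The list's median was 0.35, and 0 of the 4 passed in the DZ, between zones under isotype or anti-CD40, or for the zone difference, where 2.39%, 2.23%, 11.5% and 0.0147% of all genes did.

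For transport of glucose and lactate, 5 of 8 listed genes were tested, of which 1 rose and 1 fell in the LZ (19.1% of all genes passed there) and 1 rose in the DZ (2.39%). Slc2a6, a hexose transporter gene of the GLUT family, rose with anti-CD40 in both zones. Its LZ libraries were at 41.0 to 58.2 CPM with the isotype and at 103 to 141 with anti-CD40, and its DZ libraries at 13.0 to 23.9 and at 72.7 to 109 CPM, without overlap in either zone. The log2 fold changes were 1.31 in the LZ (SE 0.21, adjusted p = 2.82e-04) and 2.26 in the DZ (SE 0.23, adjusted p = 3.70e-06, edgeR). The difference between these changes was -0.95 (SE 0.31, adjusted p = 0.353) and did not pass. Slc2a6 was also higher in LZ than in DZ cells under isotype, by 1.37 (SE 0.24, adjusted p = 0.00280), and each of these 3 results passed in all 17 alternatives.

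Slc2a8, another GLUT family gene, fell in the LZ from 14.4 ± 10.7 to 3.91 ± 1.56 CPM. The change was -1.86 (SE 0.57, adjusted p = 0.0269), resting on 37 and 11 UMI in all. It no longer passed without the libraries numbered 4 (adjusted p = 0.143), or without isotype LZ library 1 (0.111) or 4 (0.0745) or anti-CD40 LZ library 2 (0.0514) or 4 (0.0775). Slc2a8 passed in 10 of 15 alternatives. With the stricter minimum count, or with only the LZ groups in the fit, it was not tested. The medians of the 5 transport genes were -0.11 in the LZ and -0.38 in the DZ, and 0 of 5 passed between zones under anti-CD40, where 11.5% of all genes did.

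Among regulators of flux 6 of 13 were tested, and in the LZ 1 rose and 1 fell, beside 19.1% of all genes. Pfkfb3, whose product makes the fructose 2,6-bisphosphate that activates phosphofructokinase, went from 17.4 ± 10.8 to 46.9 ± 18.6 CPM (1.42, SE 0.41, adjusted p = 0.0200, edgeR). It no longer passed without anti-CD40 LZ library 2 (1.14, adjusted p = 0.0901) or with only the LZ groups in the fit (adjusted p = 0.0527). Egln2, a prolyl hydroxylase gene of the oxygen-sensing pathway, fell from 247 ± 65.0 to 140.0 ± 17.6 CPM (-0.82, SE 0.23, adjusted p = 0.0150), and no longer passed without isotype LZ library 4 (-0.62, adjusted p = 0.0574).

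None of the 6 regulators passed in the DZ (edgeR), where 2.39% of all genes did. Txnip, which limits glucose uptake, was lower in LZ than in DZ cells under anti-CD40, at 83.4 to 90.2 against 117 to 189.8 CPM (-0.70, SE 0.20, adjusted p = 0.0288, edgeR). Over 17 alternatives its value was -0.82 to -0.58 with adjusted p from 0.00720 to 0.112, and it no longer passed without any single one of the anti-CD40 LZ libraries (adjusted p 0.0507 to 0.0688) or without anti-CD40 DZ library 3 (0.112). The list's median was -0.31 in the LZ and -0.53 between zones under anti-CD40.

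Neighbouring routes were tested next. Of 7 tested genes for pyruvate entry into mitochondria 0 passed in any of the 5 comparisons, with a median of 0.15 in the LZ. Of all genes 19.1% passed in the LZ, 2.39% in the DZ and 2.23% between zones under isotype. Under anti-CD40 11.5% passed between zones, and 0.0147% passed for the zone difference. Of 6 tested pentose phosphate genes 1, Pgls, passed in the LZ, close to the 19.1% of all genes; the median of the 6 was 0.33, with 5 positive. Pgls encodes the lactonase of the oxidative branch and went from 371 ± 95.5 to 595 ± 96.5 CPM (0.68, SE 0.18, adjusted p = 0.0108, edgeR). It was 0.50 without isotype LZ library 1 (adjusted p = 0.0630) and 0.62 without anti-CD40 LZ library 2 (0.0510) or with only the LZ groups in the fit (0.0599). Between zones under anti-CD40 Pgls was higher in the LZ by 0.61 (SE 0.18, adjusted p = 0.0277), which passed in 9 of 17 alternatives. The single tested gene of gluconeogenesis, of 7 listed, did not pass in any comparison (edgeR), beside the same shares of all genes.

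On the GRCm38 assembly (GENCODE vM21) Ldha lies at chr7:46841475-46855627 on the plus strand, Aldoa at chr7:126795234-126800751 on the minus strand, Gapdh at chr6:125161715-125166467 on the minus strand and Pkm at chr9:59656368-59679375 on the plus strand. Ldha, Pfkl, Pgk1 and Pgam1 overlap no other annotated gene. Hk2, Gpi1, Aldoa, Tpi1 and Gapdh each overlap 1 gene on the opposite strand (Gm17034, Gm26762, Fam57b, Spsb2 and Iffo1), and Pkm overlaps Gm49759 on its own strand. Whether the counting used strand is not given in the sources used here, and without strand the reads of such partners cannot be told apart.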

How the data were processed

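The deposited table holds raw UMI counts of 9443 genes in 16 libraries; per the submitters' processing notes cutadapt, STAR, HTSeq, DESeq2 and the mm10 build were used, without versions. Other columns of the table were not used. The genes described, the pathway lists and the tests were chosen with earlier results of these data known. The filterByExpr rule at a minimum count of 10 kept 6824 genes (98.6% of UMI), which were scaled with TMM and fitted with edgeR 4.0.16 in R 4.3.3 (robust quasi-likelihood, 4 group means, all 16 libraries), with Benjamini-Hochberg adjustment over all genes tested. A gene passed at an adjusted p under 0.05. SE is the log2 fold change divided by the square root of F. The 95% intervals are the log2 fold change ± this SE times a t quantile on the residual degrees of freedom (16 libraries, 4 groups). The edgeR p-values use further degrees of freedom shared between genes, so the intervals do not match them exactly. Replicates differed beyond counting noise (chi-square per degree of freedom 1.73 to 11.0), so none were merged. The fit was tested on simulated counts. All 10 genes were named, and of the pathway lists up to 4 genes that passed per comparison. Alternatives were DESeq2 1.42.0, RLE and upper quartile factors, no minimum count, a stricter one (20 counts in 4 libraries), only the groups compared, a block for replicate number, and fits without each single library or without those numbered 4. Removal of the Gapdh row, and alternatives to the fit without a minimum count, were added after seeing the data. Transcript ends were searched with blastn 2.17.0, and figures drawn with Matplotlib 3.10.9. Some marker sums are not reported here.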

Additional observations from a re-analysis of the deposited data

Results flagged for a closer look

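Within each group of 4 libraries the farthest library was compared with the spread of the others by Dixon's ratio at its 95% critical value, over 40 groups of the 10 genes; chance alone singles out about 1 in 20 groups. Gapdh was at 422 CPM in isotype LZ library 4, against 13.4 to 22.3 in the other 3, and at 1301 CPM in anti-CD40 DZ library 1, against 18.2 to 25.7. Pfkl was at 66.6 CPM in isotype DZ library 4, against 41.1 to 44.3. Ldha was at 916 CPM in anti-CD40 LZ library 3, against 1129 to 1165; without that library its LZ log2 fold change was 0.83 (edgeR adjusted p = 0.00103). The 2 high Gapdh values in the isotype DZ group do not stand out by this ratio because 2 of its 4 libraries were high.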

How the results depend on the processing

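Of 639 values under all alternatives of the 7 members above the minimum count, 589 kept their direction and side of the threshold, 0 lost a call, 8 gained one and 42 turned sign, all 42 among values not called; Hk2, tested without a minimum count, lost its LZ call in 6 alternatives (adjusted p 0.0570 to 0.105). Members called in the LZ numbered 2 with DESeq2 and 2 without a minimum count, in both cases Ldha and Hk2, which is outside the 7. Hk2 had an adjusted p of 0.0373 with DESeq2 and 0.0327 without a minimum count (edgeR). Without the libraries numbered 4 the members called were also 2, Ldha and Aldoa, both among the 7. Of the 7, 1 to 2 were called when 1 library was left out. Genes of any kind called in the LZ numbered 1330 with DESeq2, 1270 without a minimum count and 1188 without the libraries numbered 4. All tested genes called for the zone difference numbered 34 with DESeq2, 2 with upper quartile factors, 0 without the libraries numbered 4 and 0 to 2 with 1 library left out, and the zone difference of members called was 1 with DESeq2. Between zones under isotype 101 genes were called with only the groups compared. With 1 library left out the counts were 72 to 151 there, 480 to 726 between zones under anti-CD40 (480 without anti-CD40 LZ library 2) and 98 to 181 in the DZ (98 without anti-CD40 DZ library 2).

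The replicate number as a block is not a stated pairing: 18 of 24 same-numbered pairs deviated together at r over 0.1 (range -0.21 to 0.66), and 10 of 16 libraries were closest to their own number. With this replicate block 2013 genes were called in the LZ, 427 in the DZ, 433 between zones under isotype, 1533 between zones under anti-CD40 and 107 for the zone difference; members called numbered 3 in the LZ (Ldha, Aldoa, Tpi1), 3 between zones under anti-CD40 (Ldha, Aldoa, Pfkl) and 1 for the zone difference (Ldha).

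Upper quartile factors moved the median of all genes in the LZ to -0.10 and the split from 740 higher and 562 lower to 596 and 758; between zones under anti-CD40 it went from 419 and 367 to 341 and 472. Pkm in the LZ turned to -0.00851 with them. In the DZ Pkm turned to -0.0163 with DESeq2, -0.0161 with RLE factors, -0.0439 with upper quartile factors and -0.000301 with the stricter minimum, and Pfkl to -0.000197, -0.00237 and -0.0290 with the first 3. Without the libraries numbered 4, Gapdh turned to 0.36 in the LZ and 1.19 for the zone difference, and Pkm between zones under isotype to -0.11.

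With 1 library left out, Gapdh ranged from -2.95 to 0.29 in the LZ and from -2.25 to 2.30 for the zone difference. Pkm ranged from -0.045 to 0.31 in the LZ, -0.0904 to 0.0911 in the DZ, -0.18 to 0.12 between zones under isotype, -0.015 to 0.25 under anti-CD40 and -0.046 to 0.31 for the zone difference. Gpi1 ranged from -0.11 to 0.053 in the DZ, -0.12 to 0.0124 between zones under isotype and -0.16 to 0.0252 for the zone difference. In the DZ Pfkl ranged from -0.0849 to 0.23, Tpi1 from -0.21 to 0.0781 and Ldha from -0.13 to 0.00433. The causes were not tested.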
